A study of Mus musculus with 12 samples.

Results

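The genes of the proteasome were followed in RNA sequencing of mouse testis. Members were chosen by symbol: every row whose mouse gene symbol starts with Psma, Psmb, Psmc, Psmd or Psme followed by a digit, with pseudogenes left out. The rule took 46 of the 22221 rows of the table. Of these, 44 encode proteasome subunits, assembly chaperones or activators. The others, Psmc3ip and Psme3ip1, share a symbol stem but encode no subunit and were kept out of all counts of changed genes. All animals were ICR mice, an outbred stock, and each of 4 groups has 3 libraries of total RNA from testis. The design text calls the testes cultured but describes no culture. The Con group had no treatment, and its age is not given. The Sa, IMC and IMA10 groups all received busulfan, a DNA-alkylating agent toxic to dividing germ cells, as a single dose at an age of 3 weeks. Sa mice then received saline. IMC mice received gut microbiota from donors given ddH2O. IMA10 mice received gut microbiota from donors given "Aligina Oligosaccharide" (the spelling of the labels, taken to be alginate oligosaccharide) at 10 mg/kg of body weight. The microbiota course lasted 2 weeks and testes were taken 3 weeks after it. For Sa the labels also give 3 weeks to collection. The labels do not say that libraries of a group came from separate animals, so p-values measure the spread between these samples only, which may be technical. In the table the Con columns have their own name prefix. Any batch behind it, and any difference in age, cannot be told apart from the lack of treatment.

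The 26S proteasome degrades proteins that carry ubiquitin chains. Its 20S core is a barrel of alpha and beta rings, in which 3 of the beta subunits cut peptide bonds, and its 19S cap recognises, unfolds and feeds in the substrate. Cells exposed to interferon replace the cutting subunits Psmb5, Psmb6 and Psmb7 with Psmb8, Psmb9 and Psmb10 in that order, which form the immunoproteasome and favour peptides for display to T cells. Male germ cells build a further form, the spermatoproteasome, in which Psma8 takes the place of Psma7 in the alpha ring, and they load it with the activator Psme4 (PA200). This form is needed for meiosis and for the removal of histones when the sperm nucleus is compacted.

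Levels are the authors' FPKM (fragments per transcript length and library size), which are scaled by length and can be compared between genes. Differences are log2 changes of FPKM + 1 with standard errors (SE) from limma, fitted on 15472 genes, and a gene passed with a Benjamini-Hochberg adjusted p under 0.05. Read depth is unknown. The tissue label was checked against marker genes. Summed FPKM of 8 markers of elongating spermatids was 38100 to 40370 in Con and 339 to 2176 in Sa, and 8 of 8 were lower in Sa, as were 8 of 10 markers of round spermatids. Of 12 markers of pachytene and later spermatocytes, 4 were lower and none was higher, and their sum was 6354 to 6425 FPKM in Con and 1059 to 2015 FPKM in Sa. Markers of Sertoli cells (10 of 10), Leydig cells (7 of 7), macrophages (8 of 8 tested) and endothelium (5 of 5) were higher in Sa. In such tissue RNA, fewer cells of a type and less RNA per cell cannot be told apart. IMA10 replicate 3 stood apart from its group: over all genes its correlation was 0.918 to 0.926 with the Con libraries, and 0.606 and 0.705 with the remaining IMA10 libraries. Its pachytene markers summed to 5686 FPKM, against 148.1 and 494.9 FPKM in IMA10 replicates 1 and 2. The main results that rest on it are given with and without it.

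Busulfan followed by saline was accompanied by unequal changes among the proteasome genes. Of the 44, 42 passed the filter on low values, 28 were higher in Sa than in Con and 5 were lower, by limma. Over all genes tested, 52% were higher and 19.2% were lower, so the share of rises was above, and the share of falls below, that of all genes, and neither gap was tested. The median log2 change of the 42 genes was 0.72, and that of all genes was 0.60. The 5 lower genes were Psme4, Psmc3, Psma6, Psmc2 and Psmd8. The largest rises were those of the activator genes Psme2 and Psme1, the alpha subunit Psma7 and the immunoproteasome subunit Psmb10. The direction of the whole set depends on scaling. With median-of-ratios scaling, which moves the median change of all genes by -0.63, 12 genes were higher and 12 were lower (37.7% and 39.1% of all genes). With quantile normalization, which moves it by -0.39, 29 were higher and 3 were lower (39.3% and 29% of all genes). Relative to the median gene, 25 of 42 lay above it as deposited, 20 with median-of-ratios scaling and 34 with quantile normalization. In every one of the 19 alternatives run, 12 genes passed as higher: Psma1, Psma2, Psma7, Psmb1, Psmb2, Psmb6, Psmb8, Psmb10, Psmd5, Psmd7, Psme1 and Psme2. Psma6, Psmc2 and Psme4 passed as lower in all of these alternatives, Psmc2 only just with quantile normalization (limma adjusted p = 0.0498). The share of all genes that passed in every alternative was not computed, so these counts cannot be set against all genes.

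**Figure D1:**
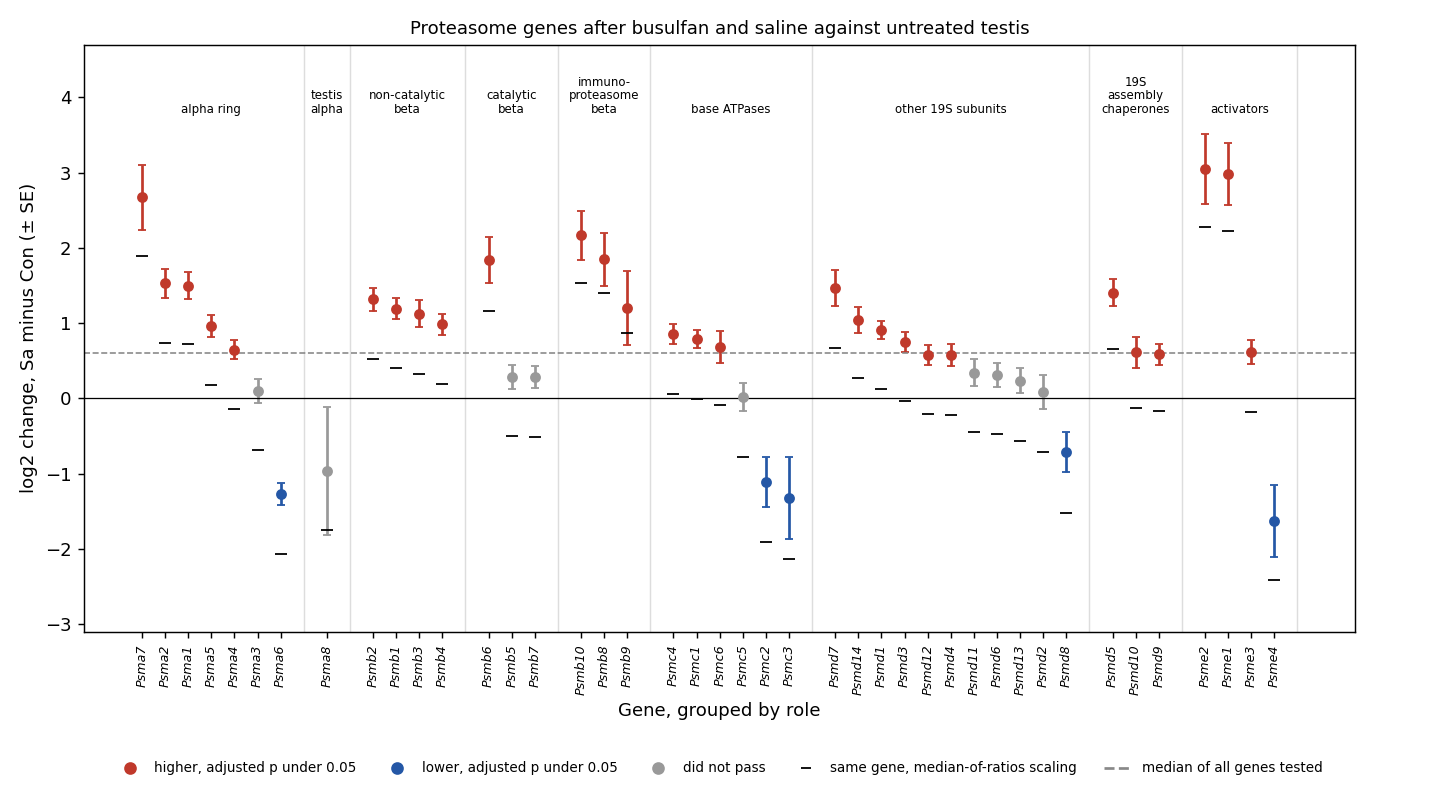
Log2 change of FPKM + 1 (Sa minus Con, y axis) for the 42 tested proteasome genes, grouped by role along the x axis. Points are limma estimates with bars of 1 SE, short black dashes give the same gene after median-of-ratios scaling, and the dashed line is the median of all genes at 0.60. Psme2 and Psme1 are highest at 3.05 and 2.98, and Psme4 is lowest at -1.63.

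In the alpha ring, which gates entry to the core, the testis subunit and its general counterpart traded ranks. Psma8 (NCBI Gene ID 73677), the germ-cell alpha subunit, stood at 81.4, 92.0 and 85.4 FPKM in Con, 67.6, 43.1 and 28.8 FPKM in Sa, 33.1, 38.6 and 19 FPKM in IMC, and 3.76, 17.0 and 96.7 FPKM in IMA10. Psma7 (NCBI Gene ID 26444), the subunit it replaces, stood at 27.8, 26.3 and 22.5 FPKM in Con, 159, 166 and 178 FPKM in Sa, 185, 178 and 211 FPKM in IMC, and 237, 223 and 59.4 FPKM in IMA10. All Sa and IMC libraries were below all Con libraries for Psma8, whereas IMA10 replicate 3 was above every Con library. For Psma7 every busulfan library was above every Con library, with IMA10 replicate 3 the lowest of them. Psma7 rose by 2.67 (SE 0.427, limma adjusted p = 0.00045) in Sa against Con. The change of Psma8 was -0.96 (SE 0.851, limma adjusted p = 0.32) and did not pass. In the fit without IMA10 replicate 3 its SE was 0.469 and its limma adjusted p was 0.0794, and in a fit of the Con and Sa libraries alone Psma8 passed (limma adjusted p = 0.0124).

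Psma8 made up 74.5%, 77.8% and 79.1% of the summed FPKM of Psma8 and Psma7 in Con, or 77.1% ± 2.37 (SD, n = 3). Its share was 21.5% ± 8.02 in Sa and 13.7% ± 4.94 in IMC (SD, n = 3). The IMA10 libraries had shares of 1.56%, 7.07% and 61.9%, the last being replicate 3. No busulfan library reached the Con range. The log2 ratio of Psma8 to Psma7 (each FPKM + 1) was lower than in Con by -3.63 in Sa, -4.40 in IMC and -4.58 in IMA10. Without IMA10 replicate 3, an alternative added after the data were seen, the last was -6.36. Each of the 3 differences over all libraries had an exact two-sided permutation p of 0.1, the smallest that 3 against 3 libraries allows, and 0.275 after adjustment over 66 such tests (11 measures in 6 comparisons). The 2 genes together summed to 107.9 to 118.3 FPKM in Con and 207.2 to 226.1 FPKM in Sa. Psma8 differed less between Sa and Con than the pachytene markers did: its log2 level minus their mean was higher by 1.08 in Sa, with no overlap of libraries (exact permutation p = 0.1). Against markers of round spermatids the same difference was 1.96 (exact permutation p = 0.1).

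**Figure D2:**
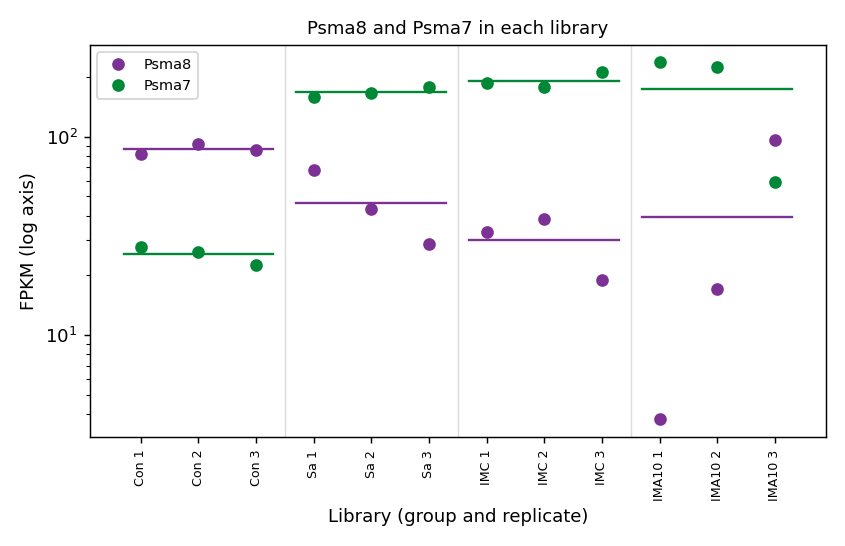
FPKM (log axis) of Psma8 and Psma7 in each of the 12 libraries, with lines at the group means. Psma8 lies above Psma7 in the 3 Con libraries and in IMA10 replicate 3 (96.7 against 59.4 FPKM), and below it in the other 8 libraries.

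The remaining alpha genes did not move as a block. Of the 7 constitutive alpha genes, 5 rose in Sa, 1 fell and 1 did not pass, beside 52% higher and 19.2% lower over all genes. Psma2 rose by 1.53 and Psma1 by 1.5, whereas Psma3 was at 0.10. With median-of-ratios scaling Psma7, Psma2 and Psma1 still passed as higher, Psma5 and Psma4 did not pass, and Psma3 was lower (-0.69). Psma6, which encodes the alpha1 subunit, was the exception to the ring. It stood at 380.4, 375 and 361 FPKM in Con, 173, 154 and 137 FPKM in Sa, 137, 152 and 138 FPKM in IMC, and 142, 146 and 178.5 FPKM in IMA10. No busulfan library reached the Con range, and IMA10 replicate 3 stayed with its group here. Psma6 fell by 1.27 (SE 0.146, limma adjusted p = 0.000278). Psma6 was 14.6 times as high as Psma7 in Con by mean FPKM, and 0.922 times as high in Sa.

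All 4 genes of beta subunits that do not cut peptide bonds rose in Sa, by 0.98 to 1.32, as did 52% of all genes. Psmb2 had the largest change, at 53.0, 51.5 and 48.6 FPKM in Con, 133, 128 and 124 FPKM in Sa, 107, 122 and 122 FPKM in IMC, and 111, 117 and 84.6 FPKM in IMA10. Psmb4 had the smallest, at 83.3, 92.6 and 79.7 FPKM in Con, 184, 169 and 156 FPKM in Sa, 144, 181 and 178 FPKM in IMC, and 165, 162 and 152 FPKM in IMA10. For both genes every busulfan library lay above every Con library. With median-of-ratios scaling the changes of Psmb2 and Psmb1 still passed (0.52 and 0.40), and those of Psmb3 and Psmb4 (0.33 and 0.19) did not.

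The cutting subunits differed from each other. Psmb5, the chymotrypsin-like subunit, stood at 44.3, 42.15 and 38.0 FPKM in Con, 54.8, 48.5 and 49.3 FPKM in Sa, 44.2, 56.0 and 55.6 FPKM in IMC, and 55.3, 48.7 and 65.1 FPKM in IMA10. Psmb7, the trypsin-like subunit, stood at 172, 181 and 162 FPKM in Con, 229.5, 196 and 202 FPKM in Sa, 194, 218 and 198 FPKM in IMC, and 173, 199 and 224 FPKM in IMA10. Both had small positive values in Sa against Con: 0.29 for Psmb5 (limma adjusted p = 0.128) and 0.28 for Psmb7 (limma adjusted p = 0.1), and neither passed. Without IMA10 replicate 3 both passed (limma adjusted p = 0.0357 and 0.0185), and with median-of-ratios scaling both passed in the other direction, at -0.50 and -0.52. Psmb6, the caspase-like subunit, was the lowest of the constitutive genes in every library but IMA10 replicate 1, where Psmc6 was lower. It stood at 3.95, 3.17 and 3.23 FPKM in Con, 17.6, 10.5 and 17.6 FPKM in Sa, 16.1, 22.1 and 23.5 FPKM in IMC, and 22.4, 22.2 and 10.4 FPKM in IMA10. Psmb6 rose by 1.84 (SE 0.309, limma adjusted p = 0.000555), and every busulfan library was above the Con range.

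The 3 immunoproteasome genes were near or below 2 FPKM in Con and passed as higher in Sa, as did 52% of all genes. Psmb8 and Psmb9 were under 1 FPKM in every Con library, so they entered the test only through the busulfan libraries. Psmb10 stood at 2.15, 2.00 and 1.91 FPKM in Con, 12.9, 11.8 and 12.9 FPKM in Sa, 12.4, 12.7 and 17.5 FPKM in IMC, and 15.1, 15.6 and 5.34 FPKM in IMA10. Psmb8 stood at 0.58, 0.33 and 0.93 FPKM in Con, 7.01, 3.77 and 3.95 FPKM in Sa, 4.40, 5.92 and 8 FPKM in IMC, and 5.06, 5.08 and 1.70 FPKM in IMA10. For both genes all busulfan libraries lay above all Con libraries, and IMA10 replicate 3 was nearest to Con. Psmb10 rose by 2.16 (SE 0.327, limma adjusted p = 0.000389) and Psmb8 rose by 1.85 (SE 0.353, limma adjusted p = 0.00105). Psmb9 was less regular. It stood at 0.59, 0 and 0.76 FPKM in Con, 4.41, 4.09 and 0.23 FPKM in Sa, 2.09, 1.86 and 1.42 FPKM in IMC, and 2.09, 1.16 and 1.52 FPKM in IMA10. Sa replicate 3 lay inside the Con range. Its change of 1.20 (SE 0.491, limma adjusted p = 0.0485) was just past the threshold and no longer passed when any of 10 of the 12 libraries was left out. Its limma adjusted p was then 0.0523 to 0.169. The exceptions were Sa replicate 3, without which the change was 1.90, and IMA10 replicate 3. With no filter on low values Psmb9 did not pass (limma adjusted p = 0.0604). Psmb9 also did not pass with median-of-ratios scaling (0.86), whereas Psmb10 and Psmb8 did (1.54 and 1.41).

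Each immunoproteasome gene was set against the constitutive gene whose place its product takes. Psmb8 made up 1.49% ± 0.825 of the FPKM of Psmb8 and Psmb5 in Con, 8.66% ± 2.33 in Sa and 10.4% ± 1.9 in IMC (SD, n = 3). Psmb10 made up 1.16% ± 0.0695 of Psmb10 and Psmb7 in Con, 5.67% ± 0.33 in Sa and 6.55% ± 1.37 in IMC (SD, n = 3). In IMA10 the shares were 8.39%, 9.45% and 2.54% for Psmb8, and 8.04%, 7.24% and 2.33% for Psmb10. The constitutive gene was thus the more abundant partner in every library. The log2 ratio lay above the Con range for both pairs in Sa: the difference was 1.56 for Psmb8 to Psmb5 and 1.88 for Psmb10 to Psmb7 (exact permutation p = 0.1 each). In IMC the differences from Con were 1.81 and 2.08, both without overlap (exact permutation p = 0.1 each). In IMA10 they were 1.11 with overlap (exact permutation p = 0.2) and 1.78 without overlap (exact permutation p = 0.1). Without IMA10 replicate 3 they were 1.61 and 2.32. The third pair went otherwise. Psmb9 made up 10.7% ± 9.73 of Psmb9 and Psmb6 in Con and 16.5% ± 13.7 in Sa (SD, n = 3), and the log2 ratio differed by -0.64 with overlapping libraries (exact permutation p = 0.7). In this pair the constitutive Psmb6 itself rose. In IMC and IMA10 Psmb9 made up 8.31% ± 2.94 and 8.74% ± 3.89 (SD, n = 3). Its log2 ratio to Psmb6 (each FPKM + 1) lay below the Con range there, by -1.29 and -1.19 (exact permutation p = 0.1 each). Without IMA10 replicate 3 the latter was -1.52. That separation rests on the added 1. Psmb9 divided by Psmb6 without it was 0.149, 0 and 0.235 in Con. The quotient overlapped this in IMC (0.13, 0.0841 and 0.0603) and IMA10 (0.0932, 0.0523 and 0.146). Its mean was 0.128 in Con and 0.218 in Sa, opposite in sign to the log2 difference there. Averaged over the 3 pairs the log2 ratio was higher in Sa by 0.94 without overlap (exact permutation p = 0.1). With quantile normalization this difference was 0.49 and the libraries overlapped (exact permutation p = 0.3). In IMC the average was higher than in Con by 0.87 without overlap (exact permutation p = 0.1). In IMA10 it was higher by 0.57 with overlap (exact permutation p = 0.2), and by 0.805 without replicate 3.

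Markers of macrophages and of leukocytes in general were higher in Sa too, as were those of Sertoli cells, Leydig cells and endothelium. Over all genes 52% were higher. All 8 macrophage markers tested and all 4 leukocyte markers tested were higher in Sa, and macrophage markers summed to 32.4 to 41.2 FPKM in Con, 213 to 324 FPKM in Sa and 237 to 379 FPKM in IMC. In IMA10 they summed to 197.8, 285.7 and 72.92 FPKM, again lowest in replicate 3. The only lymphocyte marker that could be tested was lower, and the 9 lymphocyte markers summed to 10.2 to 11.2 FPKM in Con and 2.0 to 3.26 FPKM in Sa. No marker was at 0 in all libraries. The mean log2 level of the 3 immunoproteasome genes minus that of the macrophage markers differed by -0.57 between Sa and Con, with overlapping libraries (exact permutation p = 0.3). Between IMC and Con it differed by -0.55 without overlap, and against the leukocyte markers by -0.66 without overlap (exact permutation p = 0.1 each). These levels add 1 to each FPKM, which shrinks changes of low genes, and Psmb8 and Psmb9 were under 1 FPKM in every Con library. No other pseudocount was run here, so these values cannot show whether the immunoproteasome genes rose less than the markers. The part of immune cells in the change was not tested.

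**Figure D3:**
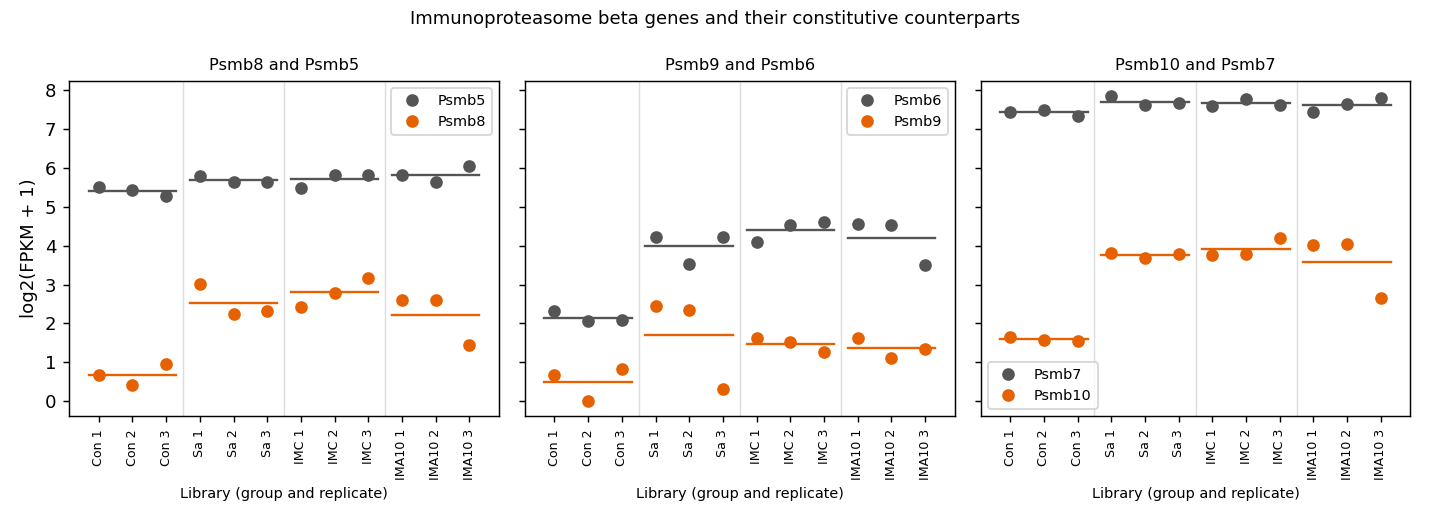
Log2(FPKM + 1) of the immunoproteasome genes Psmb8, Psmb9 and Psmb10 (orange) and their constitutive counterparts Psmb5, Psmb6 and Psmb7 (grey) in the 12 libraries, with lines at group means. Psmb8 and Psmb10 are higher in Sa than in Con by 1.85 and 2.16, Psmb5 and Psmb7 differ by 0.29 and 0.28, and Psmb6 is higher by 1.84.

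The promoters of the pairs Psmb8 and Psmb5, and Psmb9 and Psmb6, are shown as examples, and how alike they are was not measured. The 100 bases before each start site are given from RefSeq (build GRCm38.p6), 5′ to 3′ on the strand of the gene. Capitals mark an antioxidant response element (TGACNNNGC) in Psmb5 and Psmb6, a gamma-activated sequence (TTCNNNGAA) in Psmb8, and a CCAAT box on the reverse strand in Psmb9.
Psmb5, chr14:54617996-54618095, minus strand: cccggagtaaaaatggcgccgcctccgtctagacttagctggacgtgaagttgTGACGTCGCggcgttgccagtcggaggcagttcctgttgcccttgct
Psmb8, chr17:34198095-34198194, plus strand: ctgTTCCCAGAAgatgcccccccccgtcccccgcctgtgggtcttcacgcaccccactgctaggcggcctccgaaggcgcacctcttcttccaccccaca
Psmb6, chr11:70525257-70525356, plus strand: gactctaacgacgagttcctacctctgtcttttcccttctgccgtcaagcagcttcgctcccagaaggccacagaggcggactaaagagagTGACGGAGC
Psmb9, chr17:34187331-34187430, minus strand: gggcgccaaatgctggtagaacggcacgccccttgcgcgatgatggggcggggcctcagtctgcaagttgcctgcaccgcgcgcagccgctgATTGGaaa

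Promoters of 300 bases (250 before the start to 50 after it) were found for 39 of the 46 genes, 43 promoters in all, and both strands were searched. The antioxidant response element, bound by factors that include the proteasome regulator Nfe2l1, was present in 6 (Psmb5, Psmb6, Psmc6, Psmd12, Psmd9 and Psme4) and in 12.39% of the 32851 promoters of all genes. The gamma-activated sequence was present in 2 (Psmb8 and Psmd2; 8.3% of all promoters). The interferon-stimulated response element (GAAA, any 2 bases, GAAA) was present in 4 (Psmb3, Psmd4, Psmd9 and Psme1; 3.44%). The cAMP response element (TGACGTCA) was found in 0 of these promoters and in 1.79% of all, and CCAAT in 16 of them and 37.41% of all. Of these 16, 14 belong to proteasome genes, and the others are Psmc3ip and Psme3ip1. Genes with the antioxidant response element included Psmb6, which rose, Psme4, which fell, and Psmb5, which did not pass. A match describes letters only.

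Genes of the 19S cap also went both ways, as did all genes tested (52% higher and 19.2% lower). Its base holds 6 ATPases that unfold the substrate, and 3 of their genes rose, 2 fell and 1 (Psmc5, 0.02) did not pass. Psmc4 had the largest rise, 0.85, at 40.8, 40.5 and 36.7 FPKM in Con, 75.7, 69.4 and 70.4 FPKM in Sa, 67.4, 76.2 and 73.4 FPKM in IMC, and 74.1, 68.9 and 62.2 FPKM in IMA10. Psmc3, the ATPase Rpt5, was the most abundant constitutive proteasome transcript of untreated testis. It stood at 541, 529 and 533 FPKM in Con, 259.6, 203 and 181 FPKM in Sa, 187, 232 and 137 FPKM in IMC, and 91.0, 118 and 552 FPKM in IMA10. IMA10 replicate 3 was above all Con libraries, and the other 8 busulfan libraries were all below them. Psmc3 fell by 1.33 (SE 0.546, limma adjusted p = 0.0491). This call lay at the threshold and was lost when any of 10 of the 12 libraries was left out, the exceptions being IMA10 replicates 1 and 3, with a limma adjusted p of 0.0507 to 0.123. Without IMA10 replicate 3 its SE was 0.196 and its limma adjusted p was 0.000114. Psmc2, the ATPase Rpt1, stood at 185, 186 and 202 FPKM in Con, 103, 88.55 and 74.8 FPKM in Sa, 75.8, 87.0 and 69.65 FPKM in IMC, and 58.4, 68.3 and 165 FPKM in IMA10. Psmc2 fell by 1.11 (SE 0.328, limma adjusted p = 0.0116), with no overlap between Con and any busulfan library. The call of Psmc6, a rise of 0.69, was lost without Sa replicate 2 (limma adjusted p = 0.0549). With median-of-ratios scaling Psmc4, Psmc1 and Psmc6 did not pass, at 0.06, -0.01 and -0.08, and Psmc3, Psmc2 and Psmc5 (-0.78) passed as lower. With quantile normalization Psmc3 was at -0.87 and did not pass (limma adjusted p = 0.134).

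Of the 11 other genes of the 19S cap, 6 rose, 1 fell and 4 (Psmd11, Psmd6, Psmd13 and Psmd2, 0.09 to 0.34) did not pass. Over all genes 52% were higher and 19.2% lower. Psmd7, a partner of the deubiquitinase subunit Psmd14, rose most. It stood at 52.7, 56.7 and 55.9 FPKM in Con, 154, 150.0 and 157 FPKM in Sa, 158, 159 and 169 FPKM in IMC, and 203, 189 and 96.7 FPKM in IMA10. Its change was 1.46 (SE 0.241, limma adjusted p = 0.000506), and that of Psmd14, which removes ubiquitin from the substrate, was 1.04. Psmd8, a lid subunit, went the other way, at 284, 278 and 274 FPKM in Con, 188, 158 and 164 FPKM in Sa, 155, 169 and 152 FPKM in IMC, and 128, 131 and 282 FPKM in IMA10. Psmd8 fell by 0.72 (SE 0.265, limma adjusted p = 0.033), a call that was lost when any Con library, Sa replicate 2 or Sa replicate 3 was left out (limma adjusted p = 0.0687 to 0.0894). With quantile normalization Psmd8 was at -0.24 and did not pass (limma adjusted p = 0.353), nor did it with the replicate number as a block (limma adjusted p = 0.051). IMA10 replicate 3 lay inside the Con range for Psmd8. The ubiquitin receptor gene Psmd4 rose by 0.58, but its value was -0.22 with median-of-ratios scaling. Among the 6 genes that rose, Psmd7 alone passed as higher with that scaling, while Psmd6 (-0.47), Psmd13 (-0.56), Psmd2 (-0.71) and Psmd8 passed as lower. Psmd11, Psmd6 and Psmd13 passed as higher without IMA10 replicate 3, and so did these genes and Psmd2 with quantile normalization.

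The 3 chaperones of 19S assembly all rose in Sa, as did 52% of all genes. Psmd5 rose by 1.41, from 9.46, 9.08 and 8.70 FPKM in Con to 27.2, 26.4 and 23.6 FPKM in Sa, with 23.1, 25.99 and 25.94 FPKM in IMC and 23.8, 23.9 and 15.3 FPKM in IMA10. Psmd9 had the smallest change, 0.58, at 12.4, 11.65 and 12.5 FPKM in Con, 19.8, 18 and 18.5 FPKM in Sa, 17.1, 19.99 and 17 FPKM in IMC, and 19.5, 19.4 and 20.8 FPKM in IMA10. In both genes the busulfan libraries lay above all Con libraries. Psmd10 (gankyrin) rose by 0.61, a call lost without Con replicate 1, Con replicate 3, Sa replicate 2 or Sa replicate 3 (limma adjusted p = 0.0639 to 0.075). With median-of-ratios scaling Psmd5 still passed at 0.66, and Psmd10 and Psmd9 were at -0.12 and -0.17.

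The activators, which cap the core in place of the 19S particle, gave the extremes in both directions. Psme1 and Psme2 encode the alpha and beta chains of the interferon-inducible activator PA28. Psme1 stood at 9.48, 11.4 and 8.43 FPKM in Con, 74.3, 86.5 and 90.7 FPKM in Sa, 72.5, 90.2 and 114 FPKM in IMC, and 89.6, 94.85 and 26.2 FPKM in IMA10. Psme2 stood at 13.6, 9.91 and 10.7 FPKM in Con, 90.2, 103 and 111 FPKM in Sa, 100, 105 and 124 FPKM in IMC, and 132, 115 and 28.9 FPKM in IMA10. Each busulfan library exceeded the Con range for both genes, and IMA10 replicate 3 was the lowest of them. Psme1 rose by 2.98 (SE 0.417, limma adjusted p = 0.000361) and Psme2 rose by 3.05 (SE 0.459, limma adjusted p = 0.000386). In Sa their mean levels, 83.8 and 101 FPKM, were far above the 12.6, 4.91 and 2.91 FPKM of Psmb10, Psmb8 and Psmb9.

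Psme3, the nuclear activator PA28gamma, stood at 49.7, 51.4 and 51.3 FPKM in Con, 86.9, 75.3 and 73.6 FPKM in Sa, 68.7, 76.1 and 75.2 FPKM in IMC, and 78.2, 75.5 and 53.65 FPKM in IMA10. It rose by 0.62 in Sa (limma adjusted p = 0.00707), but its value was -0.18 with median-of-ratios scaling and did not pass there. Psme4 encodes PA200, which directs the proteasome to acetylated histones in maturing spermatids. It stood at 58.9, 68.5 and 73.3 FPKM in Con, 21.6, 25.6 and 16.5 FPKM in Sa, 24.3, 20.9 and 13.9 FPKM in IMC, and 9.52, 16.9 and 49.9 FPKM in IMA10. The groups did not overlap, though IMA10 replicate 3 came near to the lowest Con library. Psme4 fell by 1.63 (SE 0.475, limma adjusted p = 0.011). Its log2 level minus that of the spermatocyte markers differed by 0.42 between Sa and Con with overlapping libraries (exact permutation p = 0.3), and by 0.67 between IMC and Con without overlap (exact permutation p = 0.1).

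**Figure D4:**
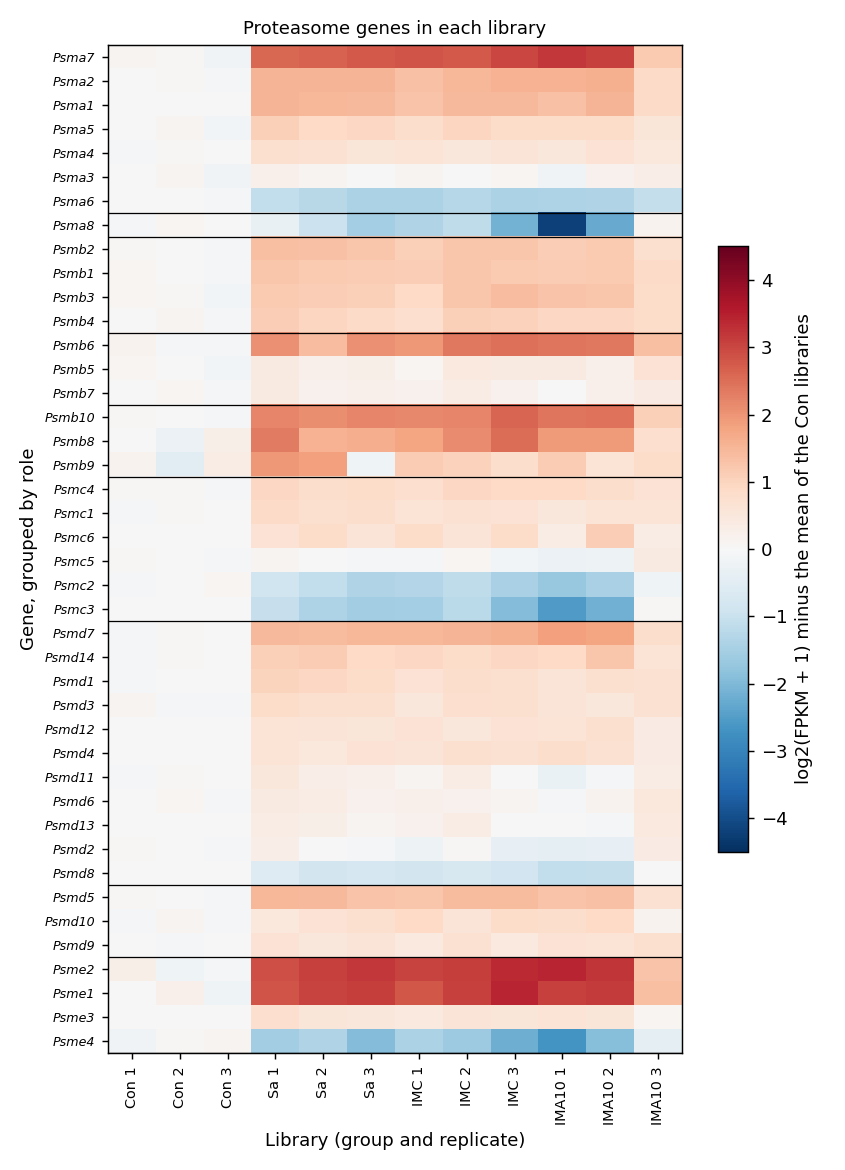
Log2(FPKM + 1) of each tested proteasome gene (rows, grouped by role) in each library (columns), minus the mean of the 3 Con libraries. Red is higher and blue lower than Con. Rows for Psma7, Psme1 and Psme2 are red, and rows for Psma6, Psma8, Psmc2, Psmc3, Psmd8 and Psme4 blue, across the busulfan libraries other than IMA10 replicate 3, which is paler in most rows.

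Psmb11 and Psme2b were too low to test. Psmb11, the thymus-specific beta subunit, did not exceed 0.04 FPKM in any library. Psme2b, a copy of Psme2, was listed at 0 in all Con libraries and at 0.08 to 0.61 FPKM in the busulfan libraries. Of the genes that share only the symbol stem, Psmc3ip (HOP2), a factor of meiotic recombination, had a mean of 169.5 ± 10.1 FPKM in Con and 64.3 ± 17.8 FPKM in Sa (SD, n = 3). Its change of -1.42 did not pass (limma adjusted p = 0.0878). Psme3ip1 rose by 0.63.

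Subunits of a particle are needed in fixed proportion. The spread of transcript levels over the 31 constitutive subunits of the core and cap was therefore measured, with Psma8 left out. It was not measured over other genes, so a change in it cannot be called particular to the proteasome. The SD of log2(FPKM + 1) over these 31 genes was 1.38 to 1.41 in the Con libraries, 0.89 to 0.92 in Sa and 0.85 to 0.90 in IMC. The IMA10 libraries had 0.92, 0.84 and 1.12, the last in replicate 3. All busulfan libraries were thus below all Con libraries, and the difference between Sa and Con was -0.49 (exact permutation p = 0.1). The highest transcript, Psmc3, was 137 to 167 times the lowest, Psmb6, within each Con library. The highest was 11.7 to 19.4 times the lowest in Sa and 8.97 to 12.4 times in IMC. In IMA10 this ratio was 11.2, 10.1 and 53.1. Genes high in Con, such as Psmc3 and Psma6, lay nearer the median in Sa, and so did Psmb6 among the genes low in Con, while Psma7 moved from below the median to above it.

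**Figure D5:**
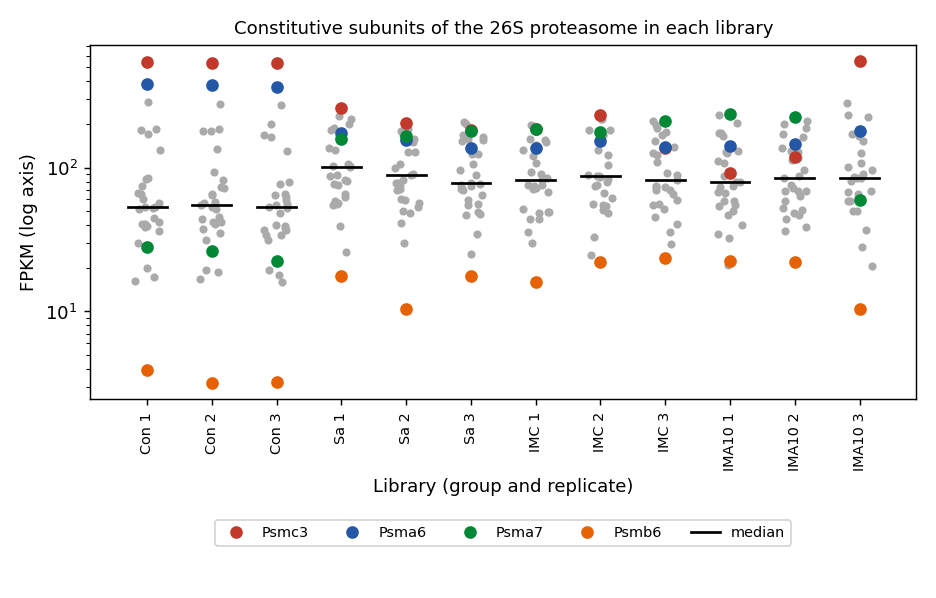
FPKM (log axis) of the 31 constitutive 20S and 19S subunit genes in each library (x axis, grey points), with 4 genes in colour and the median as a black bar. The points spread from 3.17 to 541 FPKM in Con and draw together in the busulfan libraries other than IMA10 replicate 3.

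The comparisons of IMC and of IMA10 with Con share the Con libraries with that of Sa. In IMC against Con, 27 were higher and 5 lower by limma (50.8% and 23.3% of all genes). In IMA10 against Con, 28 were higher and 6 lower (47.7% and 23.9% of all genes), the lower ones being Psma8, Psme4, Psmc3, Psma6, Psmc2 and Psmd8. Psma8 fell by 2.10 there (SE 0.851, limma adjusted p = 0.0464), while its change in IMC was -1.54 (limma adjusted p = 0.12). That SE was pooled over all groups, so it does not measure the spread within IMA10. Psma8 stood at 3.76, 17.0 and 96.7 FPKM in IMA10, the last above every Con library, whereas all IMC libraries were below all Con libraries. With median-of-ratios scaling Psma8 passed as lower in IMC as well, at -2.25 (limma adjusted p = 0.036). With quantile normalization Psma8 passed in neither group, at -1.85 in IMA10 (limma adjusted p = 0.0568) and -1.36 in IMC. Without IMA10 replicate 3, 28 were higher and 8 lower in IMA10 against Con (51.5% and 35.1% of all genes), with Psma8 at -3.24. Without that library the fit of Sa against Con gave 33 higher and 5 lower (55.5% and 30% of all genes). The number of lower genes in IMA10 against Con changed when single libraries were left out. It was 3 without any 1 of the Con libraries or without IMA10 replicate 1, and 2 without IMA10 replicate 2. In IMC against Con it was 3 without IMC replicate 3. In Sa against Con it was 3 without any 1 of the Con libraries, Sa replicate 2 or Sa replicate 3. The shares of all genes in the fits that gave 3 or 2 lower genes were not computed. Whether calls of all genes were lost alike is therefore not known. Psmb9 was at 0.98 in IMC (limma adjusted p = 0.0914) and 0.86 in IMA10 (limma adjusted p = 0.134).

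Among the 3 busulfan groups no proteasome gene passed by limma. The counts were 0 higher and 0 lower in IMC against Sa, IMA10 against Sa and IMA10 against IMC, with 0% of all genes called in either direction. No proteasome gene had an unadjusted p under 0.05 in these 3 comparisons, against 134, 928 and 328 of all genes, and the scaling, pseudocount, filter and block alternatives also gave 0. The spread within IMA10 was wide, and Psma8 differed by -1.14 between IMA10 and Sa (SE 0.851, pooled over all groups). Without IMA10 replicate 3, a comparison of 2 with 3 libraries, 7 genes were lower and 2 higher in IMA10 than in Sa (24.5% and 7.34% of all genes). The lower genes were Psma8, Psmc3, Psmd11, Psmd2, Psmc2, Psmd8 and Psmd1, and the higher ones Psma7 and Psmd7. Psma8 was lower by -2.28 (SE 0.524, limma adjusted p = 0.015) and Psmc3 by -1.02 (SE 0.219, limma adjusted p = 0.0136), and Psma7 was higher by 0.46 (SE 0.113, limma adjusted p = 0.018). The spermatocyte markers of IMA10 replicates 1 and 2, 148.1 and 494.9 FPKM, were also below the 1059 to 2015 FPKM of the Sa libraries, and their part in these differences was not tested. IMA10 against IMC gave 0 higher and 0 lower without the library as well.

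Genes that build or regulate the proteasome changed at about the rate of all genes. Of 28 such genes listed, 27 were in the table and tested, 16 rose and 5 fell in Sa against Con, Akirin2, Ngly1 and Psmf1 among the latter, with a median of 0.60. Over all genes 52% rose, 19.2% fell and the median was also 0.60. With median-of-ratios scaling 9 rose and 11 fell (37.7% and 39.1% of all genes). Vcp, the ATPase that extracts ubiquitinated proteins, rose by 1.14, from 97.6 ± 5.07 FPKM in Con to 217 ± 8.03 FPKM in Sa (SD, n = 3). Psmf1, which encodes the proteasome inhibitor PI31, fell by 2.68, from 167.5 ± 7.36 to 25.5 ± 4.93 FPKM (SD, n = 3, limma adjusted p = 0.000372). Nfe2l1, the transcription factor that induces proteasome genes, and Pomp, which matures the core, were chosen after their values were seen and rose by 2.56 and 1.38.

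Of 20 listed genes of interferon signalling and peptide loading, 19 were tested, 17 rose and 0 fell, with a median of 2.36 beside 0.60 for all genes, of which 52% rose and 19.2% fell. With median-of-ratios scaling 15 rose and 0 fell (37.7% and 39.1% of all genes). The list was chosen with earlier results of these data known, so its gap to all genes is not an independent test. Calr, a chaperone that loads peptides on MHC class I, rose by 1.29, from 339.9 ± 6.77 to 835 ± 49.6 FPKM (SD, n = 3). Irf1 and B2m, chosen after their values were seen, rose by 2.61 and 2.95. Tap1, the neighbour of Psmb9 that carries peptides into the endoplasmic reticulum, was chosen likewise and had a change of 1.37 that did not pass (limma adjusted p = 0.0636). It ran at 1.10 ± 0.971 FPKM in Con and 5.10 ± 3.80 FPKM in Sa (SD, n = 3).

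Some values are uncertain because near-identical copies could share reads. In the GENCODE M21 transcripts, over 50% of the 50-base windows of Psme2b (69.3%), Psme2 (59.3%), Psmb5 (57.1%), Psmb3 (55.8%) and Psma5 (54.5%) also occur in another gene. Psme2b shares windows with Psme2, so its low values may hold reads of Psme2. The share was 14.0 to 26.4% for Psmd11, Psme1, Psmc1, Psma3, Psma4 and Psmd2. For Psma7, Psma8, Psma6, Psmb8, Psmb9, Psmb10, Psmc2, Psmc3 and Psme4 it was 0.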

How the data were processed

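Testis RNA was sequenced by the authors in 12 libraries, 3 for each of 4 groups, and groups were taken from the labels. The authors deposited FPKM values, per the file headers, and neither aligner, counting program, build nor filter is named (not given in the sources used here). As FPKM holds no counts, read depth and counting error are not known. FPKM sums ranged from 569055 to 576093 in Con and from 476127 to 519355 in the busulfan libraries. Because FPKM is relative to the library total, a fall in abundant transcripts raises the values of all others.

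Symbols came from the NCBI Gene IDs through a RefSeq table (GRCm38.p6), which matched 20141 of 20288 numeric IDs. The 15472 genes that reached 1 FPKM in 3 or more libraries were tested. Log2(FPKM + 1) was fitted with limma 3.58.1 under R 4.3.3, using a mean-variance trend, all 12 libraries and 1 mean per group, with Benjamini-Hochberg adjustment over all genes. These log2 changes understate changes of low genes. Ratios were compared by exact two-sided permutation. The script was tested on simulated data. The genes with values in every library are Psma8, Psma7, the catalytic, immunoproteasome and activator genes, and in each role group the highest, the lowest and any member that passed against the group's median. Of the related lists, the gene with the smallest p in each direction is named. Some members of these lists are not reported here by name. The members and the lists were chosen with earlier results of these data known. Alternatives were median-of-ratios scaling, quantile normalization, a pseudocount of 0.1, filters of 0 and 5 FPKM, fitting 2 groups alone, the replicate number as a block, and leaving out each library.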

Additional observations from a re-analysis of the deposited data

How the results depend on the processing

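Counts of proteasome genes depended on scaling, on the libraries in the fit and on single libraries. With median-of-ratios scaling the numbers higher and lower were 12 and 12 in Sa against Con (37.7% and 39.1% of all genes). They were 13 and 13 in IMC against Con, and 15 and 10 in IMA10 against Con. Quantile normalization left 3 lower genes in Sa (29% of all genes) and 3 in IMC against Con. Shares of all genes were not computed for IMC and IMA10 with either scaling. A fit of only the 2 groups left 1 lower gene in IMA10 against Con. The replicate block gave 3 lower genes in Sa against Con. Shares of all genes were also not computed for the 2-group fits, the block and most of the left-out libraries. Counts without such a share cannot tell the proteasome genes from all genes. The correlation of deviations between same-numbered libraries ran from -0.765 to 0.546 over 18 pairs. As these are deviations from means of 3 libraries, they cannot decide whether the replicate numbers pair the samples. When single libraries were left out, the counts higher ranged from 25 to 33 and lower from 3 to 5 in Sa against Con, from 26 to 29 and 3 to 6 in IMC against Con, and from 24 to 28 and 2 to 8 in IMA10 against Con. In IMA10 against Sa they ranged from 0 to 2 and from 0 to 7, and both upper values come from leaving out IMA10 replicate 3. They stayed at 0 in the remaining 2 comparisons. The log2 ratio of Psma8 to Psma7 ranged from -3.98 to -3.29, and the mean of the immunoproteasome pairs from 0.78 to 1.22. A pseudocount of 0.1 gave 1.67 for the latter, and quantile normalization 0.49 with overlapping libraries (exact permutation p = 0.3). It was not computed with no pseudocount because Psmb9 is listed at 0 in Con replicate 2.

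In Sa against Con, 17 genes changed sign with median-of-ratios scaling: Psmc5 -0.78, Psmd2 -0.71, Psma3 -0.69, Psmd13 -0.56, Psmb7 -0.52, Psmb5 -0.50, Psmd6 -0.47, Psmd11 -0.45, Psmd4 -0.22, Psmd12 -0.21, Psme3 -0.18, Psmd9 -0.17, Psma4 -0.14, Psmd10 -0.12, Psmc6 -0.081, Psmd3 -0.033 and Psmc1 -0.006. Psmd10 was at -0.004 with quantile normalization. With single libraries left out, Psmc5 ranged from -0.044 to 0.074 and Psmd2 from -0.019 to 0.167. Their lowest values came without Sa replicate 1, and Psmc5 was also below 0 without Con replicate 3. Causes were not tested beyond the construction of each alternative. FPKM without counts leaves the precision of low genes such as Psmb8 and Psmb9 unknown.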
